A study of Mus musculus with 12 samples.

Results

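Complement components and regulators were followed in the mouse uterus over the estrous cycle, with the C1q chains left aside. The 9 genes were C3, C4b, C2, Cfb, C1s1, C1ra, Serping1, Cfd and Cd55, taken by name from 35896 genes with values. Of the 9, 8 were among the 12052 genes with enough counts to test, and Cfd was not. Each of the 12 samples was the entire uterus of a female mouse of the outbred Swiss Webster stock, wild-type, 8 to 12 weeks old and with no treatment named. There were 3 uteri each in proestrus (replicates 1, 2 and 3), estrus (3, 4 and 5), metestrus (5, 6 and 7) and diestrus (3, 4 and 5). Their polyadenylated RNA was read with 3' TagSeq, which counts tags near the 3' end of transcripts. How the stage was read, the hour of dissection and any processing batch are not given in the sources used here, so a batch and a stage cannot be told apart. The labels give each uterus its own sample name but do not state that the uteri came from separate litters or cohorts.

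Complement is a cascade of plasma proteins that tags surfaces for uptake and recruits leukocytes. In the classical pathway C1r, a protease of the C1 complex, activates its partner C1s, which then cleaves C4 and C2. The alternative pathway runs on C3 itself with factor B and factor D, and both routes meet in the cleavage of C3. C1 inhibitor, encoded by Serping1, blocks C1r and C1s, and CD55 on the cell surface speeds the decay of the C3-cleaving enzymes. In rodents C3 is a long known product of the uterine epithelium that rises under estrogen.

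Levels are given as CPM, the gene's tag counts scaled to library size with TMM factors, and differences as log2 fold changes with their standard error (SE). Each library held 1652841 to 2200563 estimated counts, and the 3 counts that a count of 0 allows amounted to 1.374 to 1.894 CPM, for counting error only. The metestrus libraries were the least alike, with correlations of log2 CPM across genes of 0.897 to 0.91 between them, against 0.939 to 0.957 within the other stages. Metestrus replicate 5 stood apart from replicates 6 and 7 in several of the genes below. For C3 and Cfb it lay between the proestrus and estrus values, while replicates 6 and 7 lay below all proestrus values. It was kept under its label, and whether its stage differed from that label was not tested. Metestrus means and contrasts that it moved are also given without it. Because it was singled out by the values of these same genes, those figures are a description and no independent support. Adjusted p-values come from edgeR's quasi-likelihood test with Benjamini-Hochberg adjustment over the 12052 genes, unless an alternative is named. Those of an alternative come from its own method and are adjusted over the genes it tested. A gene was called where the adjusted p was under 0.05. In bulk tissue, fewer cells of a type and less RNA per cell cannot be told apart.

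Over the 4 stages, 5 of the 8 tested genes changed in the F test, namely C3, C4b, C2, Cfb and Cd55, where 23.2% of all tested genes did. All 5 had their highest mean in estrus. Over all tested genes 2793 were called in the F test, and 1291 of these (10.7% of all tested genes) were highest in estrus. Their lowest means differed: C4b and C2 were lowest in proestrus, where neither was called against diestrus, and C3, Cfb and Cd55 were lowest in diestrus. C1s1, C1ra and Serping1 were not called, at adjusted p = 0.214, 0.06 and 0.0784. Without metestrus replicate 5 all 8 were called, and without any other single library 4 to 6 were. Over all tested genes, the 2793 called became 3428, 3305 and 3213 without metestrus replicate 5, 6 and 7 in turn. The plot of each gene by stage shows the 12 values behind these statements.

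**Figure D1:**
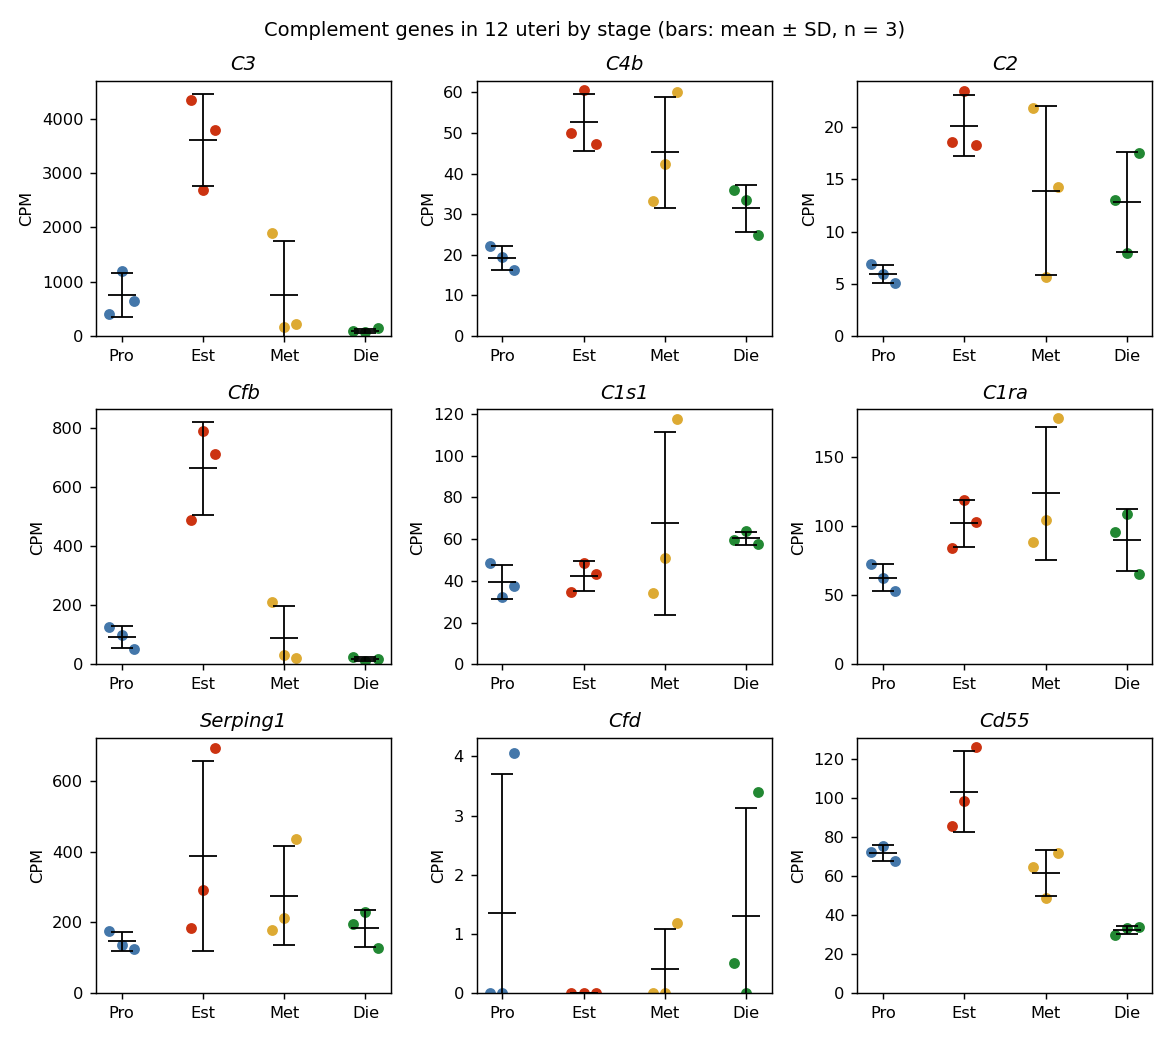
CPM of the 9 complement genes in each uterus, by stage (Pro, proestrus; Est, estrus; Met, metestrus; Die, diestrus); points are uteri in replicate order from left to right, and bars are mean ± SD with n = 3, cut off at 0 where they reach below it. The 3 estrus uteri lay above the 3 diestrus uteri for C3, C4b, C2, Cfb and Cd55, and 1 metestrus uterus lay far above the other two for C3 and Cfb.

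C3, the protein on which all complement routes converge (chr17:57203970-57228136, minus strand, GRCm38), ranged widely over the cycle. It stood at 410, 1203 and 642 CPM in proestrus, at 4352, 2689 and 3795 in estrus, at 1893, 161 and 221 in metestrus, and at 85.7, 64.8 and 142 in diestrus. Every estrus uterus was above every other uterus, and every diestrus uterus was below every other one. Metestrus was split, with replicate 5 between the proestrus and estrus values and replicates 6 and 7 between the proestrus and diestrus values. The stage means ± SD (n = 3) were 751.6 ± 408 in proestrus, 3612 ± 846 in estrus, 758 ± 983 in metestrus and 97.5 ± 40.0 in diestrus, and the metestrus mean was 191 without replicate 5.

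From estrus to diestrus C3 fell by 5.21 on the log2 scale (SE 0.84), a level 37.1-fold lower (edgeR, adjusted p = 0.00081). That call was kept under each of 22 alternatives, with adjusted p from 2.03e-09 to 0.00629. The rise from proestrus to estrus was 2.26 ± 0.73 (SE), or 4.81-fold, at adjusted p = 0.0475. It was lost in 12 of 21 alternatives, among them leaving out any one proestrus, estrus or diestrus library (0.0561 to 0.157), and adjusted p ran from 0.000277 to 0.157 over all 21. The return from diestrus to proestrus was 2.95 ± 0.76, or 7.72-fold (adjusted p = 0.0274). It was lost without proestrus replicate 2 (0.111) or 3 (0.0552) and without diestrus replicate 3 (0.101), 4 (0.115) or 5 (0.0577). With counts scaled from TPM it was lost too (0.0738), within a range of 4.21e-05 to 0.115. Between estrus and metestrus the difference was -2.25 ± 0.73 and was not called (adjusted p = 0.0778). Without metestrus replicate 5 it was -4.24, at adjusted p = 0.000157, the lowest over its alternatives, which reached 0.178. Likewise metestrus and proestrus differed by 0.01 (adjusted p = 0.994), but by -1.98 without that library (0.0184, within a range of 0.0184 to 1.0).

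The 250 bases before the start of C3 are shown because they were searched for motifs of factors known from estrogen and acute-phase responses, chosen with the sequences in view. The sequence is from RefSeq (GRCm38.p6, chr17:57228137-57228386, minus strand), and capitals mark the matches.
C3: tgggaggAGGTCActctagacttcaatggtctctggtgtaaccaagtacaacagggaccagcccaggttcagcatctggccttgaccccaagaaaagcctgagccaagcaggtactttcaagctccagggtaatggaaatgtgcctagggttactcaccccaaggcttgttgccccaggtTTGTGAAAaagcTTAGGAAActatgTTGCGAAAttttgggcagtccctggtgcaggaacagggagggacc
The window held 1 copy of AGGTCA, the nuclear receptor half-site, which 13.8% of 27025 promoter windows of the same length hold on either strand. It also held 3 copies of TTNNGNAA, a C/EBP-type motif, within 33 bases, between 70 and 38 bases before the start. At least 1 such copy is in 36.9% of the windows and at least 3 are in 2.66%. The full estrogen response element GGTCANNNTGACC, TTCNNNGAA for STAT factors, TGANTCA for AP-1, GAAANNGAAA for interferon factors and the NF-kappaB motif had no match in this window. These are matches of letters and no measure of binding.

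C4b, which encodes complement C4, the substrate of C1s (chr17:34728380-34743882, minus strand), also rose into estrus but fell back less than C3. It read 22.2, 19.4 and 16.2 CPM in proestrus, 50.1, 60.6 and 47.2 in estrus, 33.2, 42.3 and 60.2 in metestrus, and 35.9, 33.6 and 24.9 in diestrus. The proestrus uteri were the 3 lowest of the 12, and estrus and metestrus overlapped. The rise from proestrus to estrus was 1.45 ± 0.23 on the log2 scale, or 2.73-fold (edgeR, adjusted p = 0.0017). It was kept in every alternative, at adjusted p up to 0.0132. From estrus to diestrus C4b fell by 0.73 (SE 0.22), or 1.66-fold, at adjusted p = 0.0293. This was lost without estrus replicate 3 (0.0556) or 4 (0.129) and without diestrus replicate 4 (0.0643) or 5 (0.113), within a range of 0.0098 to 0.129. Metestrus was 2.34-fold above proestrus (1.23 ± 0.24, adjusted p = 0.0147), a call lost without proestrus replicate 2 (0.0665) or 3 (0.074) and in the fit to those stages alone (0.0757), with a lowest value of 0.000871. It was 1.41 without metestrus replicate 5 (0.00628). Diestrus lay above proestrus in all uteri without a call (log2 proestrus over diestrus -0.71 ± 0.24, adjusted p = 0.0903). It was called without metestrus replicate 5 (0.0496) and without metestrus replicate 7 (0.0394), within a range of 0.0394 to 0.267.

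The C4b values rest on 32 to 106 counts per uterus. The deposited tables placed 95.7% of them on C4b-203, a retained-intron transcript of 749 bases, and 4.3% on the coding transcript C4b-201. Of the 31-base words in the last 400 bases of its transcripts, 38.3% also occur in C4a, a closely related gene not analysed here. That share was not measured for C4b-203 alone, and how many of the C4b counts came from C4a cannot be told.

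C2 and Cfb are neighbours on chromosome 17 in the major histocompatibility complex, both on the minus strand, with 85 bases between them (C2 at chr17:34862604-34898265, Cfb at chr17:34856374-34862518). Their products are the homologous proteases that cleave C3, C2 in the classical and lectin pathways and factor B in the alternative pathway. Both genes rose from proestrus to estrus. Cfb also fell from estrus to diestrus, a comparison in which C2 was not called.

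C2 was at 6.85, 5.93 and 5.07 CPM in proestrus, 18.6, 23.5 and 18.3 in estrus, 21.8, 5.68 and 14.3 in metestrus, and 13.0, 7.91 and 17.5 in diestrus. All proestrus values were below all estrus and all diestrus values, and metestrus ran across nearly the whole range. Proestrus against diestrus was not called for C2 (-1.09 ± 0.44, edgeR adjusted p = 0.155, and 0.0646 to 0.491 over the alternatives). Estrus was above proestrus by 1.75 ± 0.42 on the log2 scale, or 3.36-fold (edgeR, adjusted p = 0.0132). That call was lost without proestrus replicate 3 (0.0575), without estrus replicate 4 (0.0529) and with counts scaled from TPM (0.215), within a range of 0.001 to 0.215. The F test call of C2, at adjusted p = 0.0416, was weak: it was lost without any proestrus or estrus library or diestrus replicate 3 (0.0649 to 0.132). It was also lost with library totals (0.0542), by limma-voom (0.0807) and with counts scaled from TPM (0.469), and ran from 0.00791 to 0.469 over its alternatives. The difference between diestrus and estrus was -0.66 ± 0.38 (adjusted p = 0.237). With 9 to 42 counts per uterus, C2 was the most thinly counted of the tested genes.

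Cfb was at 125.5, 100.8 and 52.8 CPM in proestrus, 488, 792 and 714 in estrus, 213, 31.6 and 22.7 in metestrus, and 23.9, 10.4 and 19.2 in diestrus. The estrus uteri were the 3 highest of the 12, and metestrus replicate 5 came next, while the other metestrus uteri lay near the diestrus values. From proestrus to estrus Cfb rose by 2.84 ± 0.63 on the log2 scale, or 7.15-fold (edgeR, adjusted p = 0.00863, and at most 0.0483 over its alternatives). From estrus to metestrus it fell by 2.88 (SE 0.63), or 7.37-fold, at adjusted p = 0.0164. This was lost without estrus replicate 4 (0.0525) or 5 (0.0536), without metestrus replicate 6 (0.0536), with counts scaled from TPM (0.0538) and in the fit to those stages alone (0.0779), and the lowest value was 7.7e-06. The difference was -4.62 without metestrus replicate 5 (3.48e-05).

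Diestrus was 37.2-fold below estrus for Cfb (-5.22 ± 0.73, edgeR adjusted p = 0.00032, and 0.00301 at most over 22 alternatives). Proestrus was 5.19-fold above diestrus (2.38 ± 0.69), just under the threshold at adjusted p = 0.0497. This last call was lost in 13 of 21 alternatives, among them leaving out any one proestrus, estrus or diestrus library (0.0562 to 0.177), and ran from 0.000377 to 0.177. Without metestrus replicate 5, metestrus was below proestrus for Cfb (-1.78, adjusted p = 0.0197). With all libraries that difference was -0.04 (0.98, and 0.0197 to 1.0 over the alternatives).

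The ratio of Cfb to C2 within a uterus separated the stages without overlap between estrus and the rest. It was 10.4 to 18.3 in proestrus, 26.3 to 38.9 in estrus and 1.1 to 1.85 in diestrus, and 9.79, 5.56 and 1.58 in metestrus replicates 5, 6 and 7. These are ratios of CPM between genes and are compared only between uteri. A read-through gene that joins C2 and Cfb, Gm20547, shares 74.1% of the 31-base words in the last 400 bases of Cfb transcripts and 29.1% in those of C2. It was listed at 0 counts in every uterus, and reads within the shared sequence could come from either gene. C2 also overlaps Zbtb12 on the opposite strand over 161 exon bases, and the use of strand in counting is not given in the sources used here.

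The genes of the C1 proteases had their highest means in metestrus, and neither was called in the F test. That order rested on metestrus replicate 7: without it the metestrus mean of C1s1 was 42.7 CPM instead of 67.6, below 60.4 in diestrus, and that of C1ra was 96.2 instead of 123, below 101.7 in estrus. C1s1, which encodes C1s (chr6:124530345-124542359, minus strand), read 48.5, 32.3 and 37.6 CPM in proestrus, 34.6, 48.6 and 43.5 in estrus, 34.2, 51.1 and 117 in metestrus, and 59.8, 63.8 and 57.7 in diestrus. All diestrus values were above all estrus and proestrus values, the reverse of C3 and Cfb, but diestrus against estrus was not called (0.51 ± 0.34, edgeR adjusted p = 0.298). It was called in the fit to those stages alone (0.0275), within a range of 0.0275 to 0.527. Estrus and proestrus differed by 0.10 ± 0.35 (adjusted p = 0.875). Without metestrus replicate 5, metestrus was above estrus (0.99, adjusted p = 0.0352, where the alternatives ran to 0.96) and above proestrus (1.10, adjusted p = 0.037, to 0.858).

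C1ra, which encodes C1r (chr6:124512405-124523443, plus strand), lies 6901 bases from C1s1. It stood at 72.4, 62.5 and 52.8 CPM in proestrus, 84.1, 118 and 103 in estrus, 88.2, 104 and 178 in metestrus, and 95.7, 109 and 65.1 in diestrus. Proestrus was below estrus and metestrus in all uteri. Metestrus was 1.97-fold above proestrus (0.98 ± 0.26, edgeR adjusted p = 0.0489), and this was lost in 13 of 21 alternatives. The libraries whose removal lost it were all of proestrus and estrus, metestrus replicate 7 and diestrus replicates 3 and 4 (0.0525 to 0.174, in a full range of 0.00392 to 0.174). Estrus against proestrus was 0.70 ± 0.26 (adjusted p = 0.0779), called without metestrus replicate 5 (0.0465) or 7 (0.0271), within a range of 0.00879 to 0.252. Metestrus replicate 7 held the highest value of the 12 uteri for both C1s1 and C1ra. Of the 31-base words in the last 400 bases, C1s1 shares 37.8% with C1s2 and C1ra shares 2.7% with C1rb.

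Cfd encodes factor D, the protease that cleaves factor B, and is best known as a product of fat cells (chr10:79890853-79892655, plus strand). It was near the floor throughout and was not tested. It was listed at 0 in 8 of 12 uteri, with 8 counts (4.06 CPM) in proestrus replicate 3, 6 (3.4 CPM) in diestrus replicate 5, 2 in metestrus replicate 7 and 1 in diestrus replicate 3. All 3 estrus uteri were at 0, which allows up to 1.374 to 1.856 CPM. Adipoq, the fat cell hormone adiponectin, was highest in the same libraries as Cfd, at 2.54 CPM in proestrus replicate 3 and 1.13 in diestrus replicate 5. It had at most 5 counts in any uterus, and 1.13 CPM is below the 1.698 CPM that 3 counts amounted to in that library. Plin1, another adipocyte marker, was highest in metestrus replicate 6 (2.52 CPM), where Cfd was at 0. The part of fat cells in the Cfd values was not tested. Of 10 adipocyte markers 3 were tested and 1, Plin4, rose from proestrus to estrus. Lipe, at 702 to 1212 CPM over the 12 uteri and with its highest mean in metestrus (1168), outweighed the other markers and was left out of their sum. The sum of the 9 without Lipe was 20.6 to 28.9 CPM in the estrus uteri, of which Plin4 made up 10.9 to 17.4. In the uteri with Cfd counts that sum was 20.8 (proestrus replicate 3), 14.1 (diestrus replicate 5), 23.3 (metestrus replicate 7) and 11.5 (diestrus replicate 3).

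Serping1, the C1 inhibitor gene (chr2:84765387-84775444, minus strand), rose into estrus through a wide spread. It was at 176, 137 and 124 CPM in proestrus, 182.5, 291 and 693 in estrus, 178, 212 and 435 in metestrus, and 194, 229 and 126 in diestrus. All estrus values were above all proestrus values, but estrus replicate 3 exceeded the highest proestrus uterus only slightly, and replicate 5 was far above the rest. Estrus was 2.68-fold above proestrus (1.42 ± 0.43, edgeR adjusted p = 0.0377). Without estrus replicate 5 the difference was 0.69 (adjusted p = 0.243) and the estrus mean dropped from 389 to 237 CPM. The call was also lost without any proestrus library (0.0729 to 0.126), estrus replicate 4 (0.0566) or diestrus replicate 3 (0.0517). It was lost by limma-voom (0.0635) and with counts scaled from TPM (0.0672) too, in a full range of 0.00124 to 0.243. Diestrus against estrus was -1.09 ± 0.43 (adjusted p = 0.0825), called without estrus replicate 3 (0.0284), in a range of 0.0117 to 0.535. No 31-base word of Serping1 is shared with another gene that has values here.

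Cd55, the membrane regulator (chr1:130439027-130462744, minus strand), varied little within most stages and stepped down from estrus through metestrus to diestrus. It read 72.4, 75.5 and 67.5 CPM in proestrus, 85.4, 98.4 and 126 in estrus, 64.8, 48.6 and 71.5 in metestrus, and 29.9, 33.1 and 34.0 in diestrus. The estrus uteri were the 3 highest and the diestrus uteri the 3 lowest, and only proestrus and metestrus overlapped. From estrus to diestrus Cd55 fell by 1.68 (SE 0.18), or 3.2-fold (edgeR, adjusted p = 4.81e-05, and at most 0.00109 over 22 alternatives). Proestrus was 2.22-fold above diestrus (1.15 ± 0.18, adjusted p = 0.00167, at most 0.0216).

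The smaller steps of Cd55 were less secure. Its rise from proestrus to estrus was 1.44-fold (0.53 ± 0.17, edgeR adjusted p = 0.0452). It was lost in 12 of 21 alternatives, in a full range of 0.0278 to 0.223. These were leaving out any proestrus or diestrus library or estrus replicate 4 or 5 (0.0596 to 0.223), and 4 changes of method. The latter were DESeq2 (0.0637), library totals (0.0685), no filter on low counts (0.0829) and counts scaled from TPM (0.119). The rise was 0.34 without estrus replicate 5. Its fall from estrus to metestrus was 0.74 in size (log2 -0.74 ± 0.17, adjusted p = 0.0191). It was lost without estrus replicate 4 (0.0548) or 5 (0.0998) and without metestrus replicate 6 (0.0768). The same held with counts scaled from TPM (0.0518) and in the fit to those stages alone (0.102), in a range of 0.0106 to 0.102. The difference was -0.79 without metestrus replicate 5 (0.0206). From metestrus to diestrus the difference was -0.93 ± 0.18, with no overlap and no call (adjusted p = 0.061). Without metestrus replicate 6 that step was called (0.0112), in a range of 0.0056 to 0.293, while without metestrus replicate 5 it was -0.89 (0.117). The related gene Cd55b shares 17.6% of the 31-base words in the last 400 bases and was listed at 0 in every uterus.

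The window before Cd55, which shared the estrus peak and diestrus low of C3, is shown for comparison (RefSeq, GRCm38.p6, chr1:130462745-130462994, minus strand). It has no capitals, since none of the 7 motifs searched in C3 had a match in it.
Cd55: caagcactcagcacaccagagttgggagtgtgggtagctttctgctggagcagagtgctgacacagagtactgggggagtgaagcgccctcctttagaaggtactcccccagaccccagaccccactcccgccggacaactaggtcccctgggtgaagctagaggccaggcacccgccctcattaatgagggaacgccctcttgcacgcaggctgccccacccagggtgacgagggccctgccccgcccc
Windows were at hand for 5 of the 9 genes, C3, Cd55, C1ra, C1s1 and Cfd, and those of C4b, C2, Cfb and Serping1 were not analysed here. C1ra held 2 copies of TTNNGNAA and Cfd held no match. C1s1 had 2 overlapping windows for different starts, with 2 copies in one and 1 in the other. No match says only that those letters are not in that window.

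Step by step around the cycle, the step from proestrus to estrus had the most called differences with all libraries in the fit. From proestrus to estrus 6 of 8 genes rose and 0 fell, where 9.67% of all tested genes rose and 7.46% fell, and all estrus uteri were above all proestrus uteri for 7 of 8 genes (20.9% of all tested genes). The median log2 difference of the 8 was 1.43, against 0.02 over all tested genes. The rise count was 2 to 7 with single libraries left out: 2 without proestrus replicate 3 or estrus replicate 4, and 3 without proestrus replicate 1 or 2, estrus replicate 5 or diestrus replicate 3. From estrus to metestrus 2 genes fell, Cfb and Cd55, where 4.73% of all tested genes fell, with a median of -0.5 against 0.01. That count was 0 without estrus replicate 4, estrus replicate 5 or metestrus replicate 6. C3, Cfb and Cd55 were called lower and C1s1 higher without metestrus replicate 5.

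From metestrus to diestrus edgeR called 0 of the 8 genes, where it called 0.224% of all tested genes. At an unadjusted p under 0.05 there were 4, namely C3, C4b, Cfb and Cd55, where 11.3% of all tested genes passed. DESeq2 called 2 and limma-voom called 0, and of the metestrus libraries, leaving out replicate 5, 6 or 7 gave 0, 2 and 1 calls in edgeR. From diestrus to proestrus 3 genes rose, C3, Cfb and Cd55, where 4.62% of all tested genes rose. That count was 1 without proestrus replicate 2 or 3 or any diestrus library, and 2 without proestrus replicate 1 or any estrus library. The median was -0.43 against 0.0, since the other 5 genes had lower means in proestrus than in diestrus.

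Across the cycle, 4 genes were lower in diestrus than in estrus, C3, C4b, Cfb and Cd55, where 13% of all tested genes were lower. The count was 3 or 4 with any single library left out, and the median was -0.91 against 0.0. Between metestrus and proestrus 2 genes were higher in metestrus, C4b and C1ra, where 2.49% of all tested genes were. That count was 0 without proestrus replicate 2 or 3, and 1 without proestrus replicate 1, metestrus replicate 7, diestrus replicate 3 or 4 or any estrus library. When metestrus replicate 5 was left out, C4b, C1ra and C1s1 were called higher and C3 and Cfb lower. These comparisons share samples with one another.

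**Figure D2:**
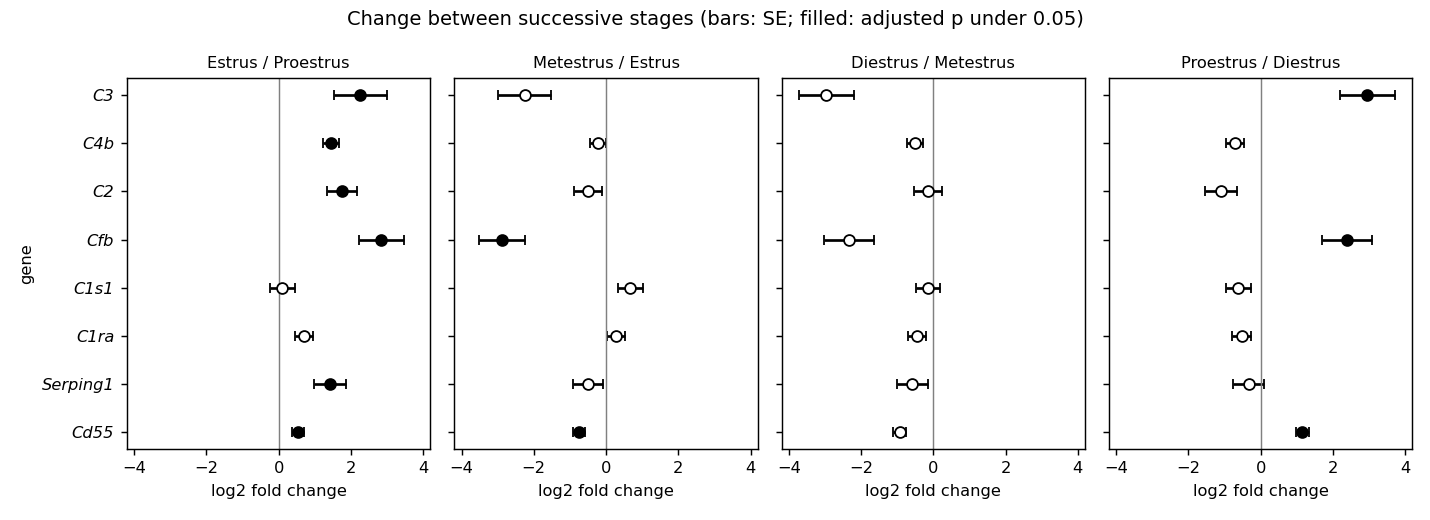
Log2 fold change of the 8 tested complement genes between successive stages, as points with bars of ± SE from the edgeR fit; filled points have an adjusted p under 0.05. Filled points number 6 from proestrus to estrus, 2 from estrus to metestrus, 0 from metestrus to diestrus and 3 from diestrus to proestrus, and C3 and Cfb have the widest bars.

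Marker genes of several cell types also differed between stages, and not all of them in the direction of these genes. The summed level of 11 epithelial markers was 2585 to 3615 CPM in proestrus, 2524 to 3203 in estrus, 1186 to 1889 in metestrus and 1038 to 1305 in diestrus, and 10 of the 11 were lower in diestrus than in estrus. Between proestrus and estrus the epithelial sums overlapped and 1 of 11 markers rose. C3 per 100 CPM of epithelial markers was 15.3 to 33.3 in proestrus, 99.2 to 172 in estrus, 11 to 100.2 in metestrus, with the highest value in replicate 5, and 6.24 to 10.9 in diestrus. Cfb on the same footing was 2.04 to 4.68, 19.3 to 29.2, 1.91 to 11.3 and 1.0 to 2.22 in the same order of stages. For C3 and Cfb, all estrus uteri were thus above all proestrus and diestrus uteri also per epithelial marker level.

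For Cd55 the stages lay closer together on this scale. Per 100 CPM of epithelial markers it was 2.09 to 2.7 in proestrus, 3.38 to 3.93 in estrus, 3.32 to 6.03 in metestrus and 2.6 to 3.19 in diestrus. The difference between estrus and diestrus, 3.2-fold in CPM, shrank on this scale, and the groups still did not overlap. Proestrus, 2.22-fold above diestrus in CPM, had the lowest values here and overlapped diestrus, and metestrus reached above estrus, so the order of the stages was not that of the CPM.

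Macrophage markers, 9 genes of which 8 were tested, summed to 236 to 287 CPM in proestrus, 682 to 766 in estrus, 306 to 588 in metestrus and 328 to 474 in diestrus. Of these, 7 rose from proestrus to estrus and 5 fell from estrus to diestrus. The sum of the 9, like the mean of C4b, was lowest in proestrus and higher in diestrus, a comparison in which C4b was not called. In that comparison 1 marker was called lower in proestrus and 0 higher. Lyz2, the largest part of the sum, had means of 89.7 CPM in proestrus and 213.1 in diestrus. Mrc1, Cd68 and the untested Cd163 had higher means in proestrus than in diestrus. Neutrophil markers, 9 genes of which 4 were tested, summed to 9.54 to 76.6 CPM over all uteri and 0 of 4 were called between proestrus and estrus. Stromal markers summed to 7066 CPM in metestrus replicate 5 and 12810 to 15059 in the other metestrus uteri. From proestrus to estrus the stromal sum went from 13517 to 13835 CPM down to 10590 to 11128 with no overlap, and of 7 markers 1 rose and 1 fell. Among them Pdgfra and Dpt were lowest in proestrus, as C4b was, and the others were not. Pdgfra had means of 46.2 CPM in proestrus, 135 in estrus, 92.8 in metestrus and 114 in diestrus. C4b per 100 CPM of stromal markers was 0.117 to 0.165 in proestrus, 0.424 to 0.573 in estrus, 0.281 to 0.47 in metestrus and 0.267 to 0.316 in diestrus. Smooth muscle markers summed to 6336 to 8937 CPM in proestrus, 8481 to 10900.4 in estrus, 5493 to 7533 in metestrus and 6298 to 6672 in diestrus. Of their 7 genes, 3 rose from proestrus to estrus and 3 fell from estrus to diestrus. The part of these cell types in the complement values was not tested.

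**Figure D3:**
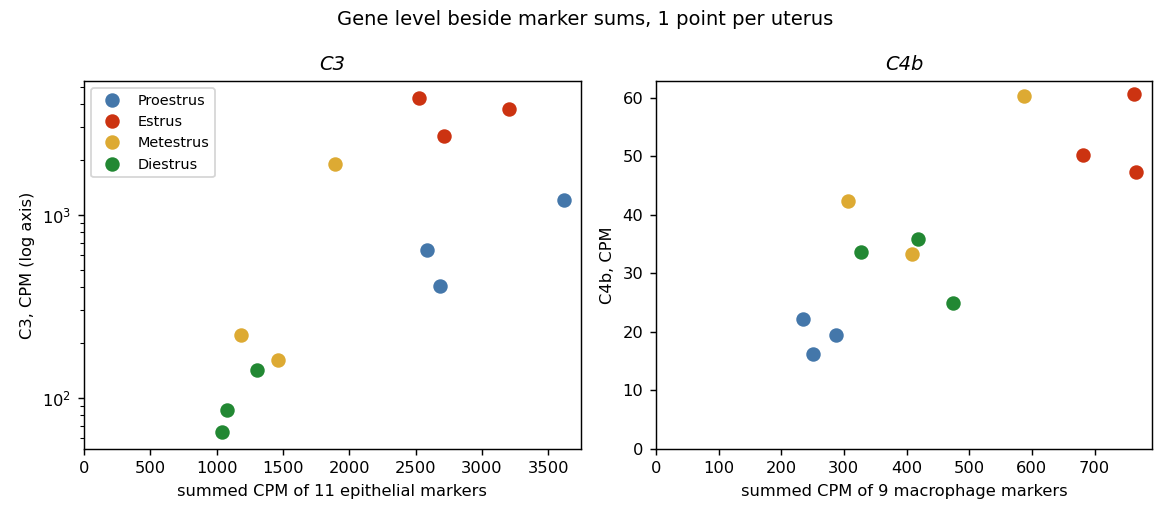
Left, C3 (CPM, log axis) against the summed CPM of 11 epithelial markers; right, C4b (CPM) against the summed CPM of 9 macrophage markers; each point is 1 uterus, coloured by stage. Estrus and proestrus uteri cover overlapping epithelial sums with C3 higher in estrus, and the 3 proestrus uteri hold both the lowest macrophage sums and the lowest C4b. Lyz2 is the largest part of the macrophage sum, and the means of Mrc1 and Cd68 were lower in diestrus than in proestrus.

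Other genes of the pathway were taken from a list of 45 receptors, regulators, C1q chains and terminal components. Of these, 43 had values and 19 were tested. In the F test 14 changed, where 23.2% of all tested genes did. Of the 14, 10 were highest in estrus, as were 1291 of the 2793 called over all tested genes. Among those highest in estrus were C1qc, C1rl, C5ar1, Itgam and Cd46, while C1qb, C1s2, Masp1 and Cd59a were highest in metestrus. By their means, 9 of the 14 were lowest in proestrus and 5 in diestrus. From proestrus to estrus 14 of the 19 rose and 0 fell (9.67% and 7.46% of all tested genes), with a median log2 difference of 1.23, and with single libraries left out 6 to 15 were called. The lowest counts, 6, were without proestrus replicate 1 or 3, and there were 8 without proestrus replicate 2 and 9 without estrus replicate 4 or 5. For the F test the count was 8 to 17, with 8 without proestrus replicate 3 and 9 without estrus replicate 3 or 4. From metestrus to diestrus edgeR called 0 of 19, with 7 at an unadjusted p under 0.05 against 11.3% of all tested genes. The terminal components C6, C7, C8a, C8b, C8g, C9 and Hc, the mouse C5 gene, had too few counts to test.

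Cfi, the protease factor I that cleaves C3b, was at 40.1 ± 17.2 CPM in proestrus, 158 ± 67.6 in estrus, 42.8 ± 28.2 in metestrus and 8.79 ± 4.72 in diestrus (SD, n = 3). Its metestrus mean was 27.3 without replicate 5. It was 18.2-fold lower in diestrus than in estrus (-4.18 ± 0.55, edgeR adjusted p = 0.000201), with no overlap between those stages and with the call kept in all alternatives. Its rise into estrus (1.99 ± 0.46, adjusted p = 0.0103) was lost without proestrus replicate 1 (0.051) or 3 (0.0562) or estrus replicate 5 (0.0523), in a range of 3.5e-05 to 0.0562.

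Properdin, the stabiliser of the alternative C3 convertase encoded by Cfp, was 4.15-fold lower in diestrus than in estrus (-2.05 ± 0.36, edgeR adjusted p = 0.00143). Clu, which encodes clusterin, an inhibitor of the terminal complex, was 4.23-fold lower (-2.08 ± 0.32, adjusted p = 0.00063). C3ar1, the receptor for the C3a fragment, was lowest in proestrus, as C4b was, with means of 12.8 CPM in proestrus, 33.6 in estrus, 24.6 in metestrus and 28.8 in diestrus. Its rise into estrus was 2.63-fold (1.39 ± 0.25, adjusted p = 0.00261) and proestrus was 2.24-fold below diestrus (-1.16 ± 0.25, adjusted p = 0.00985). The latter was lost without proestrus replicate 3 (0.051) and with counts scaled from TPM (0.0569), with a lowest value of 0.00265.

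**Figure D4:**
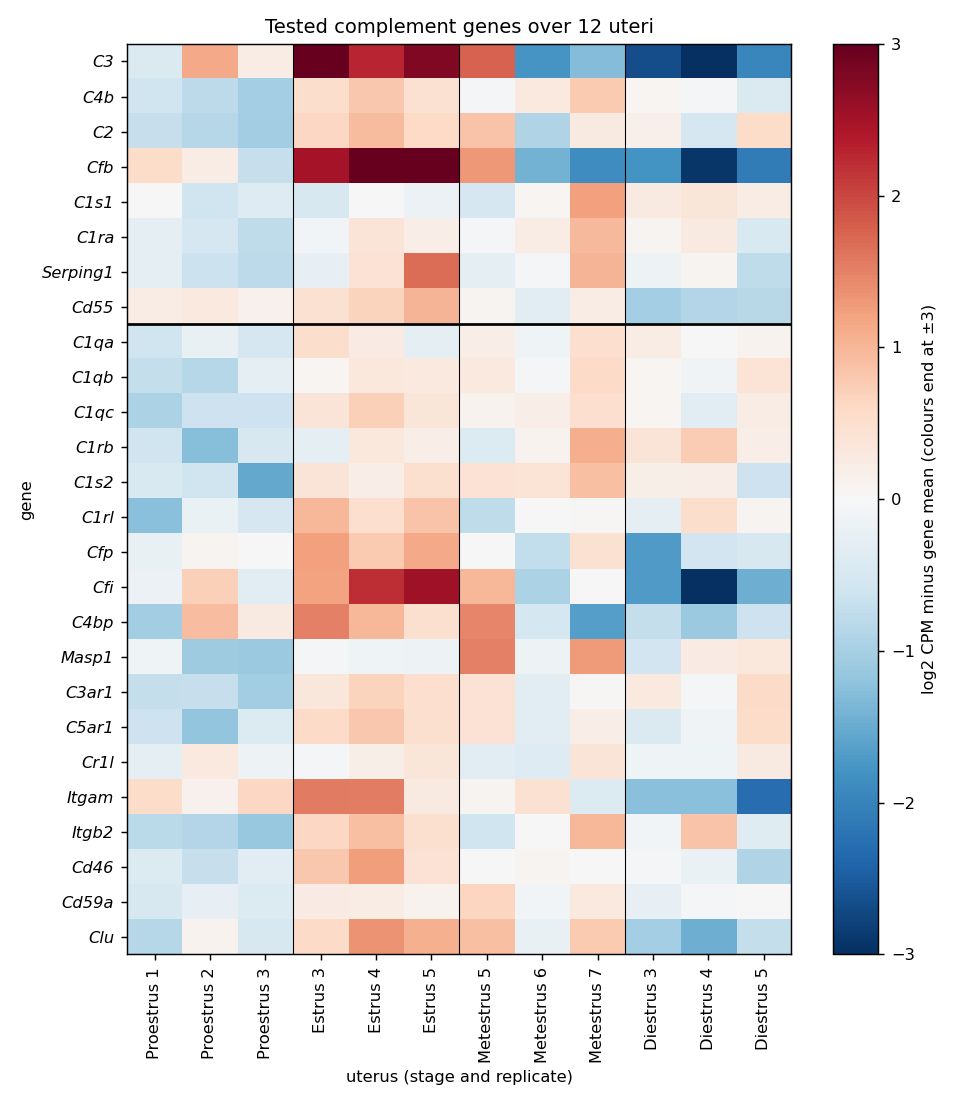
Log2 CPM of tested complement genes in each uterus minus the mean of the gene over the 12 uteri, red above and blue below; the 8 genes above the black line are those of the main set. C3, Cfb and Cfi are among the darkest red in estrus and the darkest blue in diestrus, and metestrus replicate 5 is red for C3, Cfb and Cfi where metestrus replicate 6 is blue.

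Genes with the most similar profile were sought for each of the 5 genes called in the F test. Likeness was the root mean square difference of centred log2 CPM over the 12 uteri, among 11783 other protein-coding genes. For C3 the nearest were Cxcl17, a chemokine of mucosal epithelia, at 0.59, Pglyrp1, a peptidoglycan recognition protein, at 0.62 and Cfb at 0.66, where the median over all genes was 2.1. For Cfb they were Egln3, an oxygen-sensing hydroxylase, at 0.53, Pla2g2e, a secreted phospholipase, at 0.54 and Pglyrp1 at 0.55 (median 2.06). For C4b they were Ptprc, the leukocyte marker CD45, at 0.23, Myo6 at 0.26 and Inpp5k at 0.26 (median 0.68). For C2 they were Ctss, the cathepsin of antigen-presenting cells, at 0.16, Natd1 at 0.27 and Rbm24 at 0.28 (median 0.8). For Cd55 they were Capg at 0.16, Fosl2 at 0.24 and Stim2 at 0.24 (median 0.71). The distance grows with the range of a gene, so it is read only against the median for that gene.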

How the data were processed

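Per the file headers, the authors deposited 1 table per uterus with an estimated count and a TPM value for each of 119414 transcripts. The submitters' processing notes name FastQC, kallisto and DESeq2 with no roles; the transcript set and strand setting are not given in the sources used here. Per the labels' protocols, 100 ng of RNA gave libraries of 355 to 550 bp, with no molecular identifiers described. Estimated counts were summed per gene over the 116640 transcripts (97.7%) matched to GENCODE M21 (GRCm38) and rounded; the 2774 unmatched transcripts were left out. Genes passing filterByExpr by stage (12052) were fitted with 1 coefficient per stage in edgeR 4.0.16 (R 4.3.3) with TMM factors of 0.908 to 1.05. An F test over stages and 6 two-sided contrasts were adjusted by Benjamini-Hochberg over all tested genes. Deposited TPM entered only an alternative. The code was tested on simulated data. Alternatives used limma 3.58.1, DESeq2 1.42.0, other scalings and filters, sums with genes of shared sequence, fits to 2 stages and each library left out. Of the 9 genes, only C1s1 and C1ra gained counts in the sums, so that alternative could not test the calls of the others. The genes and lists were chosen with earlier results of these data known. All 9 genes are described. Of the other complement genes that passed the F test, only Cfi, Cfp, Clu and C3ar1 are described by their values. A listed gene counted among the others is not reported here by its values or in the figures. No 2 uteri of a stage agreed within sampling noise, and p-values measure only the spread between these samples.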

Additional observations from a re-analysis of the deposited data

How the results depend on the processing

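Of the 17 called differences between stages in the members, 6 kept their call in every alternative and 11 lost it in at least 1. The members called in the F test numbered 4 to 8 (5 with all libraries) when single libraries were left out. For estrus against proestrus (6) the range was 2 to 7, with 4 by library totals, 4 by DESeq2 and 2 with counts scaled from TPM. For metestrus against estrus (2) it was 0 to 4, with 3 by limma-voom, 3 without the filter on low counts, and 0 both with counts scaled from TPM and in the fit to those stages alone. For diestrus against metestrus (0) it was 0 to 2, with 2 by DESeq2, 3 without the filter and 1 with a mean of at least 50 counts. For proestrus against diestrus (3) it was 1 to 4, with 2 by library totals, limma-voom or a mean of at least 50 counts and 1 with counts scaled from TPM. For metestrus against proestrus (2) it was 0 to 5, with 1 by library totals, limma-voom or counts scaled from TPM and 0 in the fit to those stages alone. For diestrus against estrus (4) it was 3 to 4. Other complement genes called in the F test (14) numbered 8 to 17, with 6 at a mean of at least 50 counts and 7 with counts scaled from TPM; for estrus against proestrus (14) they numbered 6 to 15, with 7 and 8. The causes were not tested, except that a higher minimum count leaves fewer genes to test. Signs changed in 18 of 2130 single values, none of them called with all libraries. With counts scaled from TPM, C2 in diestrus against metestrus was at 0.07, and by limma-voom C1s1 in that contrast was at 0.05 and C3 in metestrus against proestrus at -0.75. The other sign changes came with single libraries left out, over which C2 ran from -0.51 to 0.34 and C1s1 from -0.48 to 0.51 in diestrus against metestrus, and C1s1 from -0.04 to 0.27 in estrus against proestrus. In metestrus against estrus C1ra ran from -0.06 to 0.47 and Serping1 from -0.97 to 0.22. In metestrus against proestrus C3 ran from -1.98 to 0.53 and Cfb from -1.78 to 0.42, and in diestrus against estrus C1ra ran from -0.31 to 0.01. Estrus and diestrus share replicate numbers 3, 4 and 5, but deviations of same-numbered uteri correlated at only -0.043, 0.013 and -0.017, so the numbers were not taken as pairs; a fit with the replicate number as a block called 5 members (C1s1 too, at adjusted p = 0.0336). Other contrasts share fewer than 2 numbers. At this depth C2 and Cfd are limited by counts.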
